A study of Mus musculus with 12 samples.

Results

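The genes described here encode proteins that hepatocytes secrete into plasma, with Hamp and Lcn2 among the acute phase members. They were chosen by name from a list of 38 genes, 17 constitutive plasma proteins and 21 acute phase proteins, among the 18193 genes measured. A gene was kept where at least 1 probe set carried its symbol alone, and its brightest such probe set, by the mean over the 12 arrays, stood for it. This left 36 genes, of which 16 were constitutive and 20 acute phase (which hold the 3 fibrinogen chains). Trf, the gene of transferrin, shares its probe set with Srprb and was left out, and C3 was not analysed here.

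RNA came from primary mouse hepatocytes, isolated liver cells kept in culture for 48 h, and was hybridised to 12 Affymetrix mouse arrays, 3 for each of 4 groups. Human AHR cells given TCDD at 10 nM for 6 h and human AHR cells given the DMSO vehicle came from a B6.Cg strain with the allele Ahrtm3.1Bra and the transgenes Alb-cre and Ttr-AHR. Wild type cells, of C57BL6/J mice, were likewise given TCDD at 10 nM or DMSO for 6 h. In the human AHR strain the Alb promoter drives Cre recombinase, which acts on the conditional (floxed) mouse Ahr allele, and the Ttr promoter drives human AHR, so the human receptor replaces the mouse receptor where both promoters are active. The labels describe a single transgenic line and give neither age nor sex. All 4 groups were grown in the same serum-free medium with 10 nM dexamethasone, a synthetic glucocorticoid, and 2.5% DMSO, so no group shows these genes without either. The design gives 1 mouse per array.

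Hepatocytes make most plasma proteins under liver-enriched transcription factors such as HNF4A and the C/EBP family. In the acute phase response, interleukin 6 acts through STAT3, interleukin 1 acts through NF-kB, and glucocorticoids strengthen the response. Acute phase genes rise many-fold in an inflamed liver, while Alb and Ttr are classical negative acute phase genes. TCDD is a dioxin that binds the aryl hydrocarbon receptor (AHR), a transcription factor that pairs with ARNT on DNA. The comparisons ask whether these secretory genes moved with TCDD in cells with either receptor, and whether the genotypes differed where the promoters of 2 of the genes drive the transgenes.

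Values are probe set intensities in arbitrary units, rescaled so that each array had the same trimmed mean of 150. The deposited values had that mean in 9 arrays and a mean of 500 in the 3 wild type TCDD arrays. That group was thus scaled apart from the others, and comparisons that use it cannot be told apart from this. After rescaling its array medians were 20.3, 21.5 and 21.9 units, against 18.1, 18.1 and 19 in wild type DMSO arrays. Differences are on the scale of log2(intensity + 16), so they understate changes of dim genes, and intervals are 95% confidence intervals. Fits were made with limma over all 18193 genes, and a gene was called at a Benjamini-Hochberg adjusted p under 0.05. Tiparp and Cyp1a1, both AHR targets, were higher on each TCDD array than on any DMSO array of the same genotype. Tiparp had 3538, 3609 and 3479 units in human AHR TCDD arrays against 1327, 1403 and 1342 in human AHR DMSO arrays. In wild type cells Tiparp had 2575, 3324 and 2534 units with TCDD against 1402, 911 and 1098 with DMSO. Cyp1a1, a xenobiotic-metabolising enzyme, had 6624, 4004 and 6939 units in human AHR TCDD arrays against 81.9, 63 and 60.5 with DMSO, and 125, 2518 and 64.9 in wild type TCDD arrays against 25.3, 24 and 18.5 with DMSO. The high wild type array was replicate 2, so the size of the Cyp1a1 response differed widely among the wild type TCDD arrays. The hepatocyte markers were present on every array, with a summed level of 9 genes between 4230.0 and 10447 units.

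Certain arrays stood apart before any comparison. Both wild type replicate 2 arrays had the female transcript Xist at 2952 units with TCDD and 3085 units with DMSO, against at most 29.3 units on the other 10 arrays, so wild type replicate 2 differed from the rest in sex under both treatments. Wild type DMSO replicate 3 was the lowest of all 12 arrays for 8 of the 36 genes (F9, Plg, Fga, Fgb, Fgg, Crp, Itih3 and Itih4), while it was the lowest for 9.08% of all genes. Wild type TCDD replicate 3 was the highest of 12 for 15 of the 36 genes, against 17.3% of all genes. The summed hepatocyte markers were lowest on wild type DMSO replicate 3 and highest on wild type TCDD replicate 3, and the part of this in the results was not tested. Same-numbered arrays of a genotype also moved together, as described further on.

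No secretory or acute phase gene passed the test for TCDD in either genotype. In human AHR cells 0 of 16 constitutive and 0 of 20 acute phase genes were called, where the share called among all genes was 0.022% (4 genes). The lowest unadjusted p among the 36 genes was 0.365, and 0 of the 36 reached an unadjusted 0.05, as 2.9% of all genes did. In wild type cells 0 of 36 were called, against 0.0055% of all genes (1 gene), the lowest unadjusted p was 0.17 and 0 reached an unadjusted 0.05 (4.18% of all genes). The TCDD arrays lay wholly above or wholly below the DMSO arrays for 0 of 36 genes in either genotype. Among all genes 3.34% lay wholly above and 3.87% wholly below in human AHR cells, and 6.18% and 2.82% in wild type cells. Averaged over the genotypes, TCDD called 0 of 36 members, and 0.022% of all genes, and 0 members reached an unadjusted 0.05 (3.55% of all genes).

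The median TCDD difference of the 16 constitutive genes was 0.07 in human AHR cells and 0.10 in wild type cells on the log2 scale, against -0.01 and 0.03 for all genes. It was positive for 14 of 16 genes in human AHR cells and for 15 of 16 in wild type cells, while 46.9% and 55.7% of all genes were positive. This lean depended on scaling. The constitutive median in human AHR cells was -0.01 after quantile normalization and 0.09 with arrays shifted to a shared median, and the median in wild type cells was 0.04 and -0.02 under the same settings. The shared median moved the median of all genes to -0.08 in wild type cells. For the 20 acute phase genes the median was -0.01 in human AHR cells, with 9 positive, and 0.02 in wild type cells, with 11 positive. The precision differed between the classes. The median interval reached 0.35 on either side for constitutive genes, 0.56 for acute phase genes and 0.47 for all genes. The whole interval lay within 1 log2 unit of no change for 16 of 16 constitutive genes and 14 of 20 acute phase genes in human AHR cells, and for 15 of 16 and 15 of 20 in wild type cells.

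**Figure D1:**
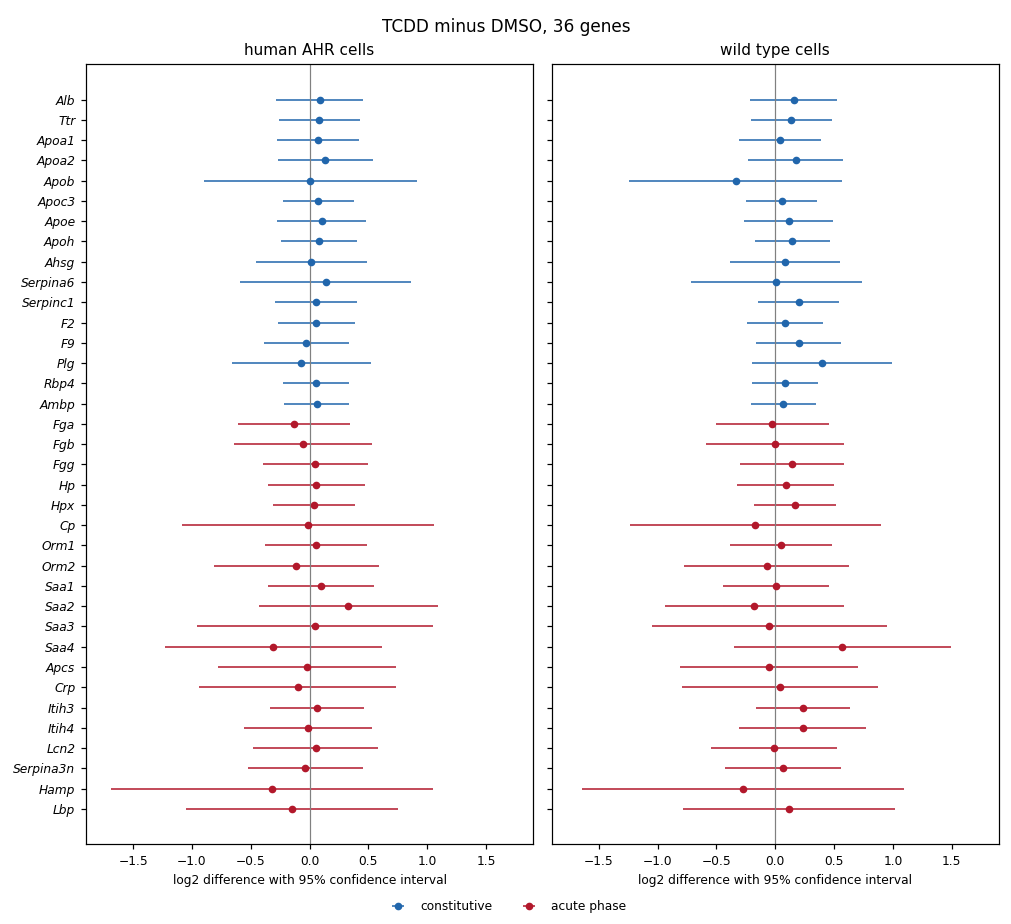
Difference between TCDD and DMSO arrays for each of 36 genes in human AHR cells (left) and wild type cells (right). The horizontal axis is the log2 difference, TCDD minus DMSO, points are limma estimates and lines are 95% confidence intervals. Every interval includes 0, and the intervals of Hamp, Cp, Saa3 and Saa4 are among the widest.

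Albumin and transthyretin come first because their promoters drive the transgenes. Alb, the main plasma protein, had 12310.4, 15347 and 15399.5 units in human AHR TCDD arrays against 11504, 13531 and 15593 in human AHR DMSO arrays. Wild type cells had 13413, 12169 and 16066 units of Alb with TCDD and 13139, 10484 and 13725 units with DMSO. The groups overlapped in each comparison, and within each genotype the arrays of a single group spread as far as the groups lay apart. The TCDD difference of Alb was 0.09 (95% confidence interval -0.28 to 0.46) in human AHR cells and 0.16 (-0.21 to 0.53) in wild type cells. Ttr, which carries thyroid hormone and the retinol-binding protein complex, had 12968, 15690.3 and 15694 units in human AHR TCDD arrays against 12916, 13247 and 15666 with DMSO. Its wild type values were 13679.6, 12052 and 16119.5 units with TCDD against 13239.6, 10872 and 13967 with DMSO. For Ttr the difference was 0.08 (-0.26 to 0.43) in human AHR cells and 0.13 (-0.21 to 0.48) in wild type cells. The Ttr probe set is of a kind that may also match other transcripts, and the same holds for that of Saa2.

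**Figure D2:**
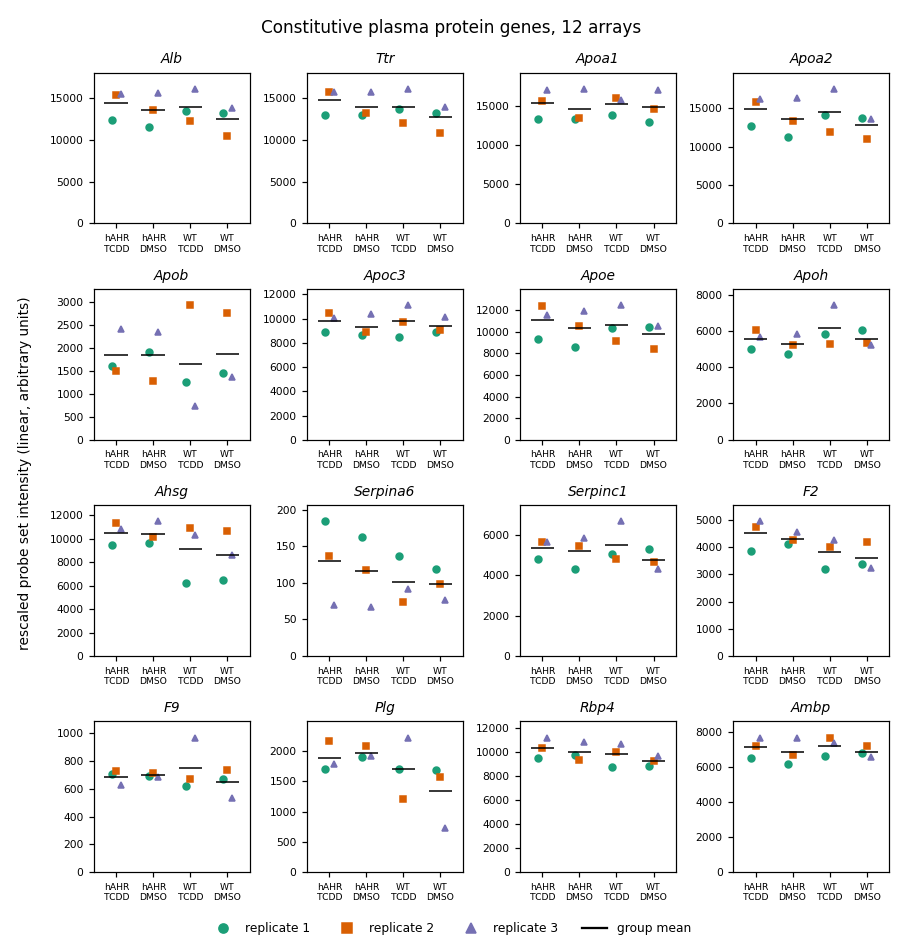
Rescaled intensities (linear scale, arbitrary units, axes from 0) of the 16 constitutive genes on 12 arrays, by group, with the replicate number as symbol and the group mean as a line. The TCDD and DMSO arrays overlap for all 16 genes in both genotypes, Apob and Plg spread most among the brighter genes, and Plg has its lowest value, 738, in wild type DMSO replicate 3.

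Rbp4, which carries retinol, averaged 10393 ± 836 units in human AHR TCDD arrays and 10015 ± 784 in human AHR DMSO arrays (SD, n = 3 each), and 9843 ± 982 units with TCDD against 9269 ± 392 with DMSO in wild type cells. Ambp, the precursor of alpha-1-microglobulin and bikunin, had the narrowest span of all 36 genes, with a highest array 1.24 times its lowest. Its TCDD difference was 0.06 (-0.21 to 0.33) in human AHR and 0.07 (-0.21 to 0.34) in wild type cells. Ahsg, which encodes fetuin-A, a binder of calcium phosphate, had 9479.6, 11318 and 10809 units in human AHR TCDD arrays against 9659, 10124 and 11502 with DMSO, and 6269.7, 10940.1 and 10312 in wild type TCDD arrays against 6470.4, 10648 and 8639.6 with DMSO. Replicate 1 was the low wild type array for Ahsg under both treatments. Serpina6, which encodes the plasma carrier of glucocorticoids, was the dimmest constitutive gene, with 184, 137 and 70 units in human AHR TCDD arrays against 162, 118 and 67.2 with DMSO. Wild type cells had 137, 73.3 and 91.3 units of Serpina6 with TCDD against 118, 98.7 and 77 with DMSO. Human AHR replicate 1 was highest and replicate 3 lowest for Serpina6 under both treatments, a span wider than any difference between the treatments.

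Among apolipoproteins, Apoa1 and Apoa2 (the main proteins of high-density lipoprotein), Apoc3 (an inhibitor of lipoprotein lipase), Apoe (a ligand of lipoprotein receptors) and Apoh (which binds phospholipids) had a highest array between 1.31 and 1.6 times the lowest. Apoa1 had 13337, 15672 and 17091 units in human AHR TCDD arrays against 13307, 13418 and 17215 with DMSO, and its difference was 0.07 (-0.28 to 0.42). Apoa1 in wild type cells had 13801, 16065 and 15823 units with TCDD against 12931, 14579.8 and 16991 with DMSO, a difference of 0.04 (-0.30 to 0.39). Apoc3 differed by 0.08 (-0.23 to 0.38) and 0.05 (-0.25 to 0.36), and Apoe by 0.10 (-0.27 to 0.48) and 0.11 (-0.26 to 0.49), in human AHR and wild type cells. Apob, the structural protein of very low-density lipoprotein, was the exception in spread, with a highest array 4.03 times its lowest. It had 1609, 1491 and 2408 units in human AHR TCDD arrays against 1914, 1268 and 2351 with DMSO, and 1256, 2931 and 728 in wild type TCDD arrays against 1451, 2746 and 1373 with DMSO. Replicate 2 held the highest wild type value of Apob under both treatments and human AHR replicate 2 the lowest in its genotype. The TCDD difference of Apob was 0.01 (-0.90 to 0.91) in human AHR cells and -0.34 (-1.24 to 0.57) in wild type cells. The wild type value rested on single arrays, at -0.87 without wild type TCDD replicate 2, 0.12 without wild type TCDD replicate 3 and -0.02 without wild type DMSO replicate 2.

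The clotting and fibrinolysis genes among the constitutive members were F2 (prothrombin), F9 (clotting factor IX), Serpinc1 (antithrombin) and Plg (plasminogen, the precursor of the fibrin-degrading protease plasmin). F2 differed with TCDD by 0.06 (-0.27 to 0.38) in human AHR cells and by 0.08 (-0.24 to 0.41) in wild type cells. For F9 the differences were -0.03 (-0.39 to 0.33) and 0.20 (-0.16 to 0.56), and for Serpinc1 0.05 (-0.29 to 0.40) and 0.20 (-0.15 to 0.54). Plg had 1698, 2158 and 1788 units in human AHR TCDD arrays against 1893, 2087 and 1919 with DMSO, and 1703, 1199.8 and 2217 in wild type TCDD arrays against 1685, 1572 and 738 with DMSO. Its wild type TCDD difference of 0.40 (-0.19 to 0.99) was the largest among constitutive genes, and wild type DMSO replicate 3, at 738 units, lay below all other arrays. Without that array the difference was 0.02, and without both wild type replicate 2 arrays it was 0.79 (0.16 to 1.42).

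**Figure D3:**
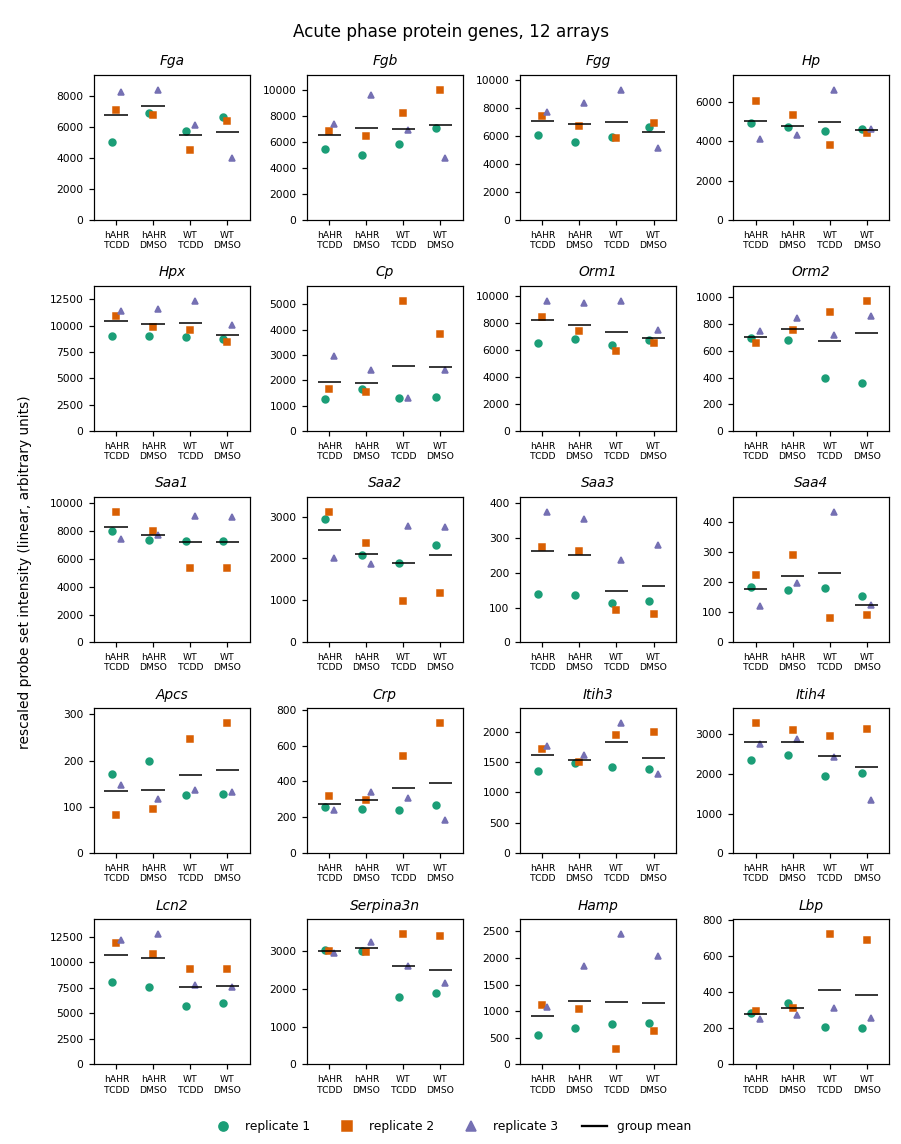
Rescaled intensities (linear scale, arbitrary units, axes from 0) of the 20 acute phase genes on 12 arrays, by group, with the replicate number as symbol and the group mean as a line. Wild type replicate 2 is high for Cp, Apcs, Crp and Lbp and low for Saa1, Saa2 and Saa3 under both treatments, and Lcn2 and Saa3 are low in human AHR replicate 1.

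Fibrinogen is made from the chains Fga, Fgb and Fgg, which assemble into the clot-forming protein and are induced together in an acute phase response. Fga had 5001, 7086 and 8248 units in human AHR TCDD arrays against 6859.6, 6733 and 8361 with DMSO, and 5748, 4522 and 6141 in wild type TCDD arrays against 6631, 6345 and 3992 with DMSO. The TCDD differences were -0.13 (-0.61 to 0.35), -0.06 (-0.65 to 0.53) and 0.05 (-0.40 to 0.49) for Fga, Fgb and Fgg in human AHR cells. In wild type cells they were -0.02 (-0.50 to 0.45), -0.00 (-0.59 to 0.58) and 0.14 (-0.30 to 0.59). The chains did not share a sign in either genotype.

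Hp (haptoglobin, which binds free haemoglobin), Hpx (hemopexin, which binds haem) and Cp (ceruloplasmin, a copper-bearing ferroxidase) clear or bind blood products and metals. Hp averaged 5022 ± 983 units in human AHR TCDD arrays and 4780.2 ± 508 in human AHR DMSO arrays, and 4967 ± 1442 with TCDD against 4549 ± 122 with DMSO in wild type cells (SD, n = 3 each). Hpx differed by 0.04 (-0.31 to 0.38) in human AHR and 0.17 (-0.18 to 0.52) in wild type cells. Cp had 1259, 1643 and 2946 units in human AHR TCDD arrays against 1658, 1564 and 2419 with DMSO. Cp in wild type cells had 1290.3, 5118 and 1326 units with TCDD against 1362, 3825 and 2409 with DMSO, so the replicate 2 arrays were the highest of their groups by a wide margin. Orm1 and Orm2 encode alpha-1-acid glycoproteins, which bind drugs and dampen inflammation. Orm1 differed by 0.05 (-0.38 to 0.49) and Orm2 by -0.11 (-0.81 to 0.59) in human AHR cells, and by 0.05 (-0.38 to 0.49) and -0.07 (-0.77 to 0.63) in wild type cells.

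The serum amyloid A genes encode apolipoproteins of high-density lipoprotein that are among the most inducible acute phase products, apart from Saa4, which is expressed constitutively in mouse liver. The 190 bases before the transcription start of Saa1, Saa2 and Saa3 are printed because these genes sit in 1 cluster on chromosome 7 and yet differed in how their values spread over the arrays. Sequences are from RefSeq on build GRCm38.p6, in 5′ to 3′ direction on the gene's strand, and capitals mark matches to the C/EBP motif TTGCNNAA on either strand. The windows are chr7:46742981-46743170 (minus strand) for Saa1, chr7:46751643-46751832 (plus strand) for Saa2 and chr7:46715677-46715866 (minus strand) for Saa3.
Saa1: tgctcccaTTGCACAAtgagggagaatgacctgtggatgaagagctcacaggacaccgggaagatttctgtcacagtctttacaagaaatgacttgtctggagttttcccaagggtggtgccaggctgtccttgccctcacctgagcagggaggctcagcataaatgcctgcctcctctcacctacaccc
Saa2: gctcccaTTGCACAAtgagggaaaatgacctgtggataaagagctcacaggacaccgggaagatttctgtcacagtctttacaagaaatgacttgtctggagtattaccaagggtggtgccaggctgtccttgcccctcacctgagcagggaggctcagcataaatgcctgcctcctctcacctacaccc
Saa3: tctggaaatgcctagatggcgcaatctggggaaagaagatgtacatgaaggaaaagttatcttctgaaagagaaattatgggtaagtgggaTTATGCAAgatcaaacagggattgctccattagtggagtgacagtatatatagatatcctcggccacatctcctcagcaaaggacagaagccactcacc
Each window held 1 match, which began 182, 183 and 99 bases before the start in Saa1, Saa2 and Saa3. Aligned end to end, the Saa1 and Saa2 windows were identical in 96.9% of columns (185 of 191), while Saa3 was identical to Saa1 in 52.7% and to Saa2 in 52.1%. Because Saa1 and Saa2 are near-identical copies, probes may not separate them, and their values are uncertain for that reason.

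Saa1 had 7986, 9356 and 7439 units in human AHR TCDD arrays against 7329, 8023 and 7709 with DMSO, and 7276, 5341 and 9089 in wild type TCDD arrays against 7277, 5344 and 9025 with DMSO. In wild type cells the 2 treatments thus gave nearly the same 3 values of Saa1, replicate by replicate. Saa2 had 2931, 3102 and 2012 units in human AHR TCDD arrays against 2075, 2378 and 1858 with DMSO, and 1898, 975 and 2773 in wild type TCDD arrays against 2332, 1170.4 and 2739 with DMSO. The TCDD difference of Saa2 was 0.33 (-0.43 to 1.09) in human AHR cells (adjusted p = 1) and -0.18 (-0.94 to 0.58) in wild type cells. In human AHR cells each TCDD array lay above the DMSO array of the same number, and with the replicate number as a block the same difference had an interval of 0.10 to 0.57, an unadjusted limma p of 0.011 and an adjusted p of 1. Saa3 was dim, with 138, 273 and 374 units in human AHR TCDD arrays against 137, 262 and 354 with DMSO, and 112, 93.5 and 237 in wild type TCDD arrays against 119.7, 82.4 and 279 with DMSO. Its TCDD difference was 0.05 (-0.95 to 1.05) in human AHR and -0.05 (-1.05 to 0.95) in wild type cells, and its highest array was 4.54 times its lowest. With the replicate number as a block, the interval of Saa3 in human AHR cells was -0.24 to 0.33. Saa4 had 185, 223 and 119 units in human AHR TCDD arrays against 173, 289 and 197 with DMSO. Saa4 in wild type cells had 179, 81.2 and 432 units with TCDD against 155, 91.5 and 125 with DMSO, and replicate 3 with TCDD, at 432, stood above the other 11 arrays. The wild type TCDD difference of Saa4 was 0.57 (-0.35 to 1.49), and it was 0.0047 without that array and 1.11 without wild type TCDD replicate 2. The difference of the TCDD differences was larger in size for Saa4 than for any other member, at -0.88 (95% confidence interval -2.18 to 0.42), with an adjusted p of 0.998, and -0.31 without wild type TCDD replicate 3.

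Crp and Apcs encode the short pentraxins C-reactive protein and serum amyloid P component, soluble pattern recognition proteins. In the mouse Apcs is the major acute phase pentraxin and Crp responds little, unlike in humans. The same 190 bases are printed for both because they were high together in wild type replicate 2, at chr1:172697866-172698055 (plus strand) for Crp and chr1:172895055-172895244 (minus strand) for Apcs, without capitals since neither window held the C/EBP motif.
Crp: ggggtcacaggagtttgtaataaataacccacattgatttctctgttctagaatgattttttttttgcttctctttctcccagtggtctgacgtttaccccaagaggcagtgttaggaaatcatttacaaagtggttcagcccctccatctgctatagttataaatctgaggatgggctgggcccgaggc
Apcs: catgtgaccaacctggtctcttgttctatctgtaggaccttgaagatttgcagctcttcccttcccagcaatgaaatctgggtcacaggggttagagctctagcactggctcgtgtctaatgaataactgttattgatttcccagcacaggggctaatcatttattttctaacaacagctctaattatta
These windows were identical in 47.8% of aligned columns. Crp had 258, 319 and 242 units in human AHR TCDD arrays against 246, 295 and 343 with DMSO, and 241, 539.8 and 307 in wild type TCDD arrays against 268, 724 and 186 with DMSO. Apcs had 172, 83.5 and 148 units in human AHR TCDD arrays against 198, 95.9 and 118 with DMSO, and 125, 246 and 137 in wild type TCDD arrays against 128, 281 and 132 with DMSO. Wild type replicate 2 was the highest array of its group for both genes under both treatments. The TCDD differences were -0.10 (-0.94 to 0.73) and 0.04 (-0.80 to 0.87) for Crp and -0.02 (-0.78 to 0.74) and -0.05 (-0.81 to 0.71) for Apcs, in human AHR and wild type cells.

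Promoter letters could be read for 29 of the 36 genes, over the 250 bases before the start and on both strands. The AHR core GCGTG was found in 3 of 29 (Ahsg, Fgg and Rbp4, 10.3%), against 28.16% of 32851 RefSeq entries of the same length. The C/EBP motif TTGCNNAA was found in 16 of 29 (55.2%, 10 acute phase and 6 constitutive genes), against 9.56% of entries. The STAT motif TTCNNNGAA was found in 6 of 29 (Apcs, F9, Fga, Fgb, Hamp and Itih4, 20.7%), against 7.02%. Matches to the NF-kB motif were found in 2 of 29 (Apoa2 and Apob, 6.9%), against 7.25%, and TATAAA in 7 of 29 (24.1%), against 12.37%. The C/EBP and STAT letters can overlap. A member gene was counted where any of its entries held the motif, while the share of RefSeq entries counts each entry once. The 2 shares are thus not on the same measure, and a gene with several entries has more chances of a match. A match is a description of letters only.

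The remaining acute phase genes act as carriers, inhibitors and regulators. Itih3 and Itih4 encode heavy chains of the inter-alpha-trypsin inhibitor family, and differed with TCDD by 0.06 (-0.34 to 0.46) and -0.01 (-0.56 to 0.53) in human AHR cells, and by 0.23 (-0.17 to 0.64) and 0.23 (-0.31 to 0.77) in wild type cells. Lcn2, or lipocalin-2, withholds iron from bacteria by binding their siderophores. It had 8034, 11889 and 12145 units in human AHR TCDD arrays against 7565, 10839 and 12743 with DMSO, and 5707, 9388 and 7797 in wild type TCDD arrays against 6005, 9327 and 7619 with DMSO. Serpina3n, a serine protease inhibitor, had 3037, 2999 and 2941 units in human AHR TCDD arrays against 3007, 2964 and 3236 with DMSO, and 1784, 3442 and 2610.5 in wild type TCDD arrays against 1901, 3407 and 2157 with DMSO. All 6 human AHR arrays of Serpina3n lay close together, whereas replicate 1 was low and replicate 2 high in both wild type groups.

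Hamp encodes hepcidin, the hormone that lowers iron export by binding ferroportin, and had the widest span of the 36 genes, with a highest array 8.28 times its lowest. It had 545, 1124 and 1089 units in human AHR TCDD arrays against 680.2, 1039.7 and 1857 with DMSO, and 763, 295 and 2445 in wild type TCDD arrays against 782, 625 and 2047 with DMSO. Its TCDD difference was -0.32 (-1.69 to 1.05) in human AHR and -0.27 (-1.64 to 1.10) in wild type cells, so this fit does not set narrow bounds for Hamp. With the replicate number as a block, the interval in human AHR cells was -0.84 to 0.20. Lbp, which hands bacterial lipopolysaccharide to its receptor, had 287, 295 and 250.2 units in human AHR TCDD arrays against 341, 315 and 275 with DMSO, and 208, 720.5 and 311 in wild type TCDD arrays against 204, 691 and 257 with DMSO. Wild type replicate 2 was again the high array under both treatments.

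The test of the difference between the TCDD effects of the genotypes called 0 of 36 members and 0% of all genes (0 genes). The median difference of effects, human AHR minus wild type, was -0.04 for constitutive and -0.05 for acute phase genes, against -0.04 for all genes. The lowest unadjusted p among the 36 was 0.168, for Saa4, and 0 reached 0.05, as 3.14% of all genes did. With the replicate number as a block, Saa2 reached it, at 0.51 (0.18 to 0.84), with an unadjusted limma p of 0.0069 and an adjusted p of 0.893. The median interval reached 0.50 on either side for constitutive and 0.80 for acute phase genes.

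Between the genotypes, the share of members called was again 0 of 36 for human AHR against wild type in TCDD arrays, in DMSO arrays and averaged over both treatments. Among all genes 0%, 0.0055% and 0.022% were called in these comparisons (0, 1 and 4 genes). The median difference of constitutive genes was 0.06 with TCDD and 0.11 with DMSO, and that of acute phase genes was 0.06 and 0.13, against -0.01 and 0.03 for all genes. Alb differed by 0.05 (95% confidence interval -0.32 to 0.42) in TCDD arrays and 0.12 (-0.25 to 0.49) in DMSO arrays. Ttr differed by 0.09 (-0.26 to 0.43) in TCDD arrays and 0.14 (-0.21 to 0.48) in DMSO arrays. Averaged over treatments, human AHR minus wild type was 0.08 (-0.18 to 0.35) for Alb (adjusted p = 0.979) and 0.11 (-0.13 to 0.36) for Ttr (adjusted p = 0.974).

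**Figure D4:**
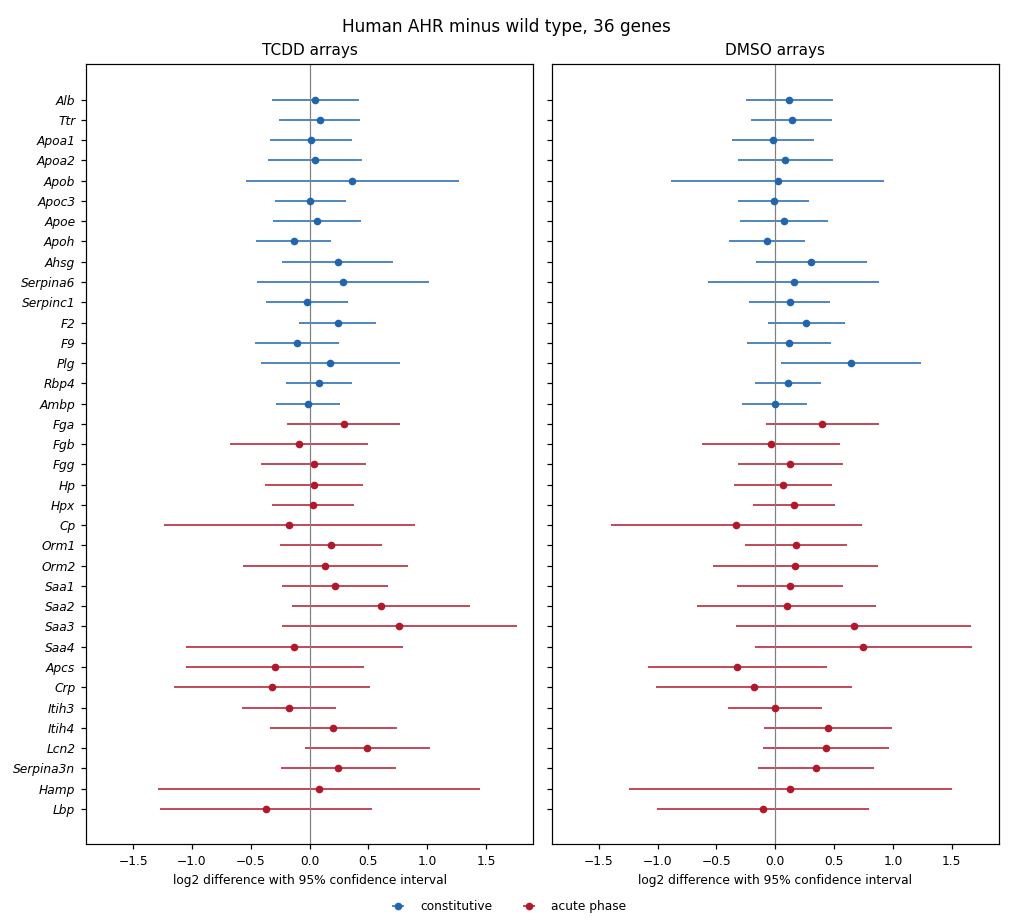
Difference between human AHR and wild type arrays for each of 36 genes, with TCDD (left) and with DMSO (right). The horizontal axis is the log2 difference, human AHR minus wild type, points are limma estimates and lines are 95% confidence intervals. The interval of Plg with DMSO lies above 0, all other intervals include 0, and no adjusted p is below 0.05.

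With TCDD the human AHR and wild type arrays overlapped for all 36 members, where 3.23% of all genes lay wholly above and 4.86% wholly below, and 0 members reached an unadjusted p under 0.05 (4.11% of all genes). Plg, Fga and Saa4 were the genes whose human AHR arrays all lay above the wild type arrays with DMSO, 3 of 36 where 6.27% of all genes lay wholly above and 4.41% wholly below. Plg was the 1 member with an unadjusted p under 0.05 in DMSO arrays (4.23% of all genes), with a difference of 0.64 (0.05 to 1.24) and an adjusted p of 0.965 in limma. Plg rests on wild type DMSO replicate 3, since the difference was 0.27 without that array and did not reach an unadjusted 0.05.

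Averaged over treatments, 4 of 36 members reached an unadjusted p under 0.05, all with human AHR above wild type, where 5.33% of all genes did so in either direction. They were Lcn2 at 0.46 (95% confidence interval 0.08 to 0.84), Saa3 at 0.71 (0.01 to 1.42), Fga at 0.34 (0.01 to 0.68) and F2 at 0.25 (0.02 to 0.48), with adjusted p of 0.893, 0.931, 0.931 and 0.924 in limma. This fit takes the 12 arrays as independent, so its intervals may be too narrow. Same-numbered arrays of human AHR cells deviated together, as did those of wild type cells over the acute phase genes. With same-numbered arrays of a genotype averaged before the fit (3 against 3, an alternative added after the values were seen), 0 members were called and the interval of each of the 4 genes included 0. The difference was 0.46 (-0.03 to 0.95) for Lcn2, 0.71 (-0.16 to 1.59) for Saa3, 0.34 (-0.01 to 0.70) for Fga and 0.25 (-0.04 to 0.55) for F2. Plg, at 0.41 (0.10 to 0.72), was then the 1 member with an unadjusted p under 0.05, against 3.42% of all genes.

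Without both wild type replicate 2 arrays 6 of 36 members reached an unadjusted 0.05 in the averaged comparison (5.65% of all genes) and 0 were called. This fit too takes arrays as independent, with only replicate numbers 1 and 3 left in wild type cells, so its intervals may be too narrow. With same-numbered arrays averaged and no array left out, the interval was -0.15 to 0.74 for Serpina3n and -0.11 to 0.77 for Itih4. The difference was then 0.53 (0.29 to 0.77) for Serpina3n (adjusted p = 0.279), 0.55 (0.25 to 0.85) for Itih4 (adjusted p = 0.404) and 0.62 (0.23 to 1.00) for Lcn2 (adjusted p = 0.55). It was 0.62 (0.18 to 1.05) for Apob (all arrays 0.19 (-0.45 to 0.83)), 0.43 (0.11 to 0.75) for Ahsg and 0.33 (0.08 to 0.57) for F2. A second, dimmer probe set of Apob had the opposite sign with all arrays, at -0.27. With all arrays Serpina3n differed by 0.30 (-0.05 to 0.64) and Itih4 by 0.33 (-0.06 to 0.71). Leaving these arrays out moved Saa4 with TCDD in wild type cells to 0.93 (0.12 to 1.74), also without a call.

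Macrophage markers moved with part of this pattern. Of 11 Kupffer cell and macrophage markers, those other than Cd68 were higher on human AHR replicates 2 and 3, under both treatments, than on the wild type arrays. These replicates were picked with the values known, and the share of all genes that separated so was not computed. With human AHR replicate 1 the genotypes overlapped, as in C1qa, at 10.8 and 4.2 units there against 25.8 on wild type DMSO replicate 3. Marco lay near the floor in wild type cells, between 0.9 and 2.8 units. A difference between the genotypes in these markers was not tested on this selection. The summed level of the markers without Cd68 was 227.0, 817 and 1338 units in human AHR TCDD arrays and 201, 960.3 and 1413 in human AHR DMSO arrays, against 136, 163 and 149.6 in wild type TCDD arrays and 104, 118 and 297 in wild type DMSO arrays. With Cd68 the 11 markers summed to between 1939 and 4521 units in human AHR TCDD, 2141 and 4864 in human AHR DMSO, 1899 and 4191 in wild type TCDD, and 1926 and 3433 in wild type DMSO arrays. C1qa, a complement gene of macrophages, had 10.8, 169.7 and 281 units in human AHR TCDD and 4.2, 183 and 312 in human AHR DMSO arrays, against 1.59, 1.95 and 2.46 in wild type TCDD and 0.9, 1.4 and 25.8 in wild type DMSO arrays. Lcn2 and Saa3, which macrophages of the mouse also express, were low in human AHR replicate 1, as these markers were, under both treatments. The same replicate was also the lowest of its genotype under both treatments for 12 of 16 constitutive and 9 of 20 acute phase genes, where it was so for 17.7% of all genes. In wild type cells Lcn2 was highest on replicate 2, at 9388 units with TCDD and 9327 with DMSO. The markers without Cd68 summed to 163 and 118 there. Saa3 in wild type cells was highest on replicate 3, at 237 and 279 units, where they summed to 149.6 and 297. The part of macrophages in the values of Lcn2 and Saa3 was not tested. In such mixed RNA, fewer cells of a type and less RNA per cell cannot be told apart. No marker of any list was called in any of the 7 comparisons. All 6 leukocyte markers measured averaged under 20 units, as did 5 of 10 stellate cell, 4 of 8 endothelial and 2 of 5 cholangiocyte markers.

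Arrays of the same number tended to deviate together. In human AHR cells the replicates held the same order under both treatments for 10 of 16 constitutive and 11 of 20 acute phase genes, against 26.5% of all genes. The order was shared in wild type cells for 7 of 16 and 11 of 20, against 23.2% of all genes. Human AHR replicate 1, the lowest for the 12 and 9 genes given above, was low for Alb, Ttr, Apoa1, Fgb, Fgg, Hpx and Hamp among others. Human AHR replicate 3 was the highest under both treatments for 8 constitutive and 10 acute phase genes, Alb, Ttr, Fga, Fgb, Fgg and Cp among them, against 18.3% of all genes. Wild type replicate 2 was the highest of its group under both treatments for 3 constitutive genes (Apob, Ahsg and Ambp) and 9 acute phase genes (Fgb, Cp, Orm2, Apcs, Crp, Itih4, Lcn2, Serpina3n and Lbp), against 18.8% of all genes. It was the lowest under both treatments for 4 constitutive genes (Alb, Ttr, Apoa2 and Apoe) and 7 acute phase genes (Hp, Orm1, Hamp and all 4 serum amyloid A genes), against 18.4% of all genes. These arrays thus held acute phase genes in both directions at once, with Cp, Crp, Apcs and Lbp high and Saa1, Saa2, Saa3 and Hamp low. They differ from the other wild type arrays in Xist as well, and sex and mouse cannot be told apart with 1 such mouse number.

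**Figure D5:**
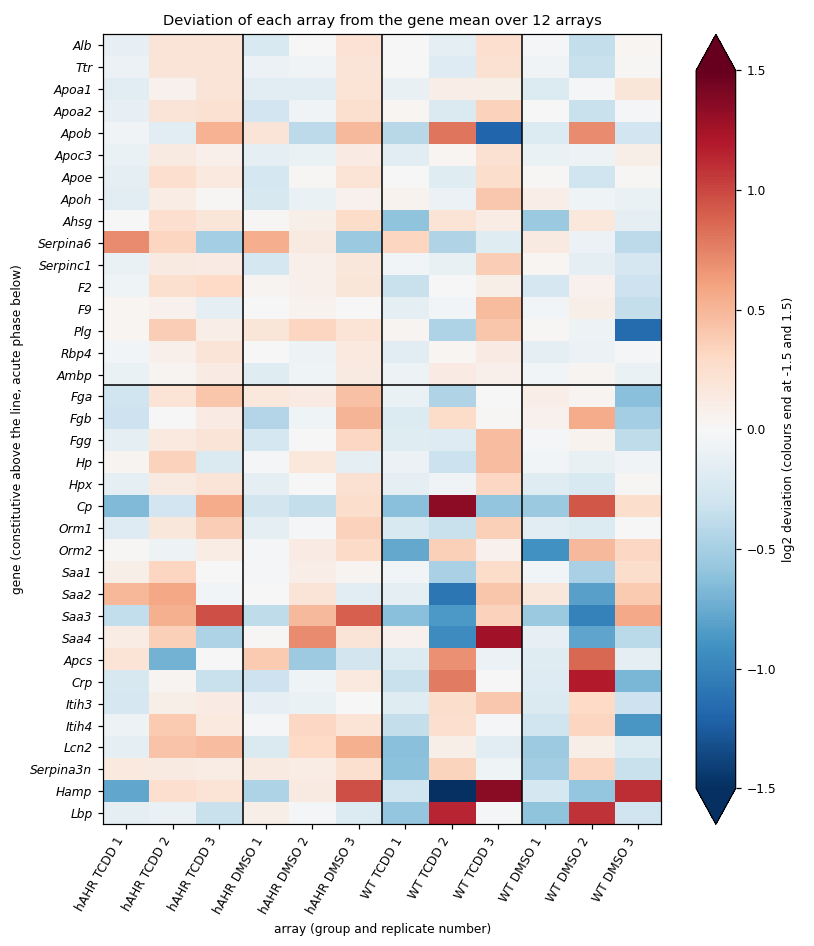
Deviation of each array (columns, by group and replicate) from the mean of each gene over all 12 arrays (rows), on the log2 scale, with red above and blue below the mean and colours ending at -1.5 and 1.5. Wild type replicate 2 shows the same reds and blues with TCDD and with DMSO, and the constitutive rows above the line are paler than most acute phase rows.

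The spread within groups differed between the classes. The residual standard deviation had a median of 0.20 on the log2 scale for constitutive genes and 0.38 for acute phase genes, against 0.27 for all genes. The highest array was a median of 1.54 times the lowest for constitutive and 2.33 times for acute phase genes, against 3.16 times for all genes. All constitutive genes but Serpina6 were brighter than at least 88.1% of all genes, and how brightness bears on the spread was not tested. Alb, Ttr, Apoa1 and Apoa2 were each brighter than about 99.96% of genes or more. The constitutive genes also moved with the brightest 1% of genes, but that 1% holds constitutive members, Alb, Ttr, Apoa1 and Apoa2 among them. Likeness of the 2 sets was thus partly fixed in advance. The constitutive median deviation was 0.23 on wild type TCDD replicate 3 and 0.16 on human AHR TCDD replicate 2. For the brightest genes it was 0.19 and 0.14. Wild type DMSO replicate 3 was the 1 array on which the signs differed, at -0.10 for the constitutive genes against 0.06 for the brightest genes. Whether probe sets this bright were compressed near the top of the scanner's range was not tested.

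Further lists of related genes were also without calls in the 7 comparisons. For TCDD in human AHR cells they held 0 genes at an unadjusted p under 0.05, as 2.9% of all genes were. In wild type cells they held 3 (Cfp, Il1b and Cebpb), where 4.18% of all genes reached it. For human AHR against wild type averaged over treatments, 5.33% of all genes reached it. So did 5 of 28 other plasma protein genes, 1 of 17 complement genes, 1 of 20 signalling genes and 0 of the other 2 lists. The lowest adjusted p among these was 0.574 in limma, in the list of other plasma proteins. Of 28 other plasma protein genes measured, 0 were called up and 0 down with TCDD in either genotype. Positive differences were found for 46.9% of all genes in human AHR and 55.7% in wild type cells, and for 15 and 24 of these 28 genes. Among them Hgfac, a protease that activates hepatocyte growth factor, differed by -0.18 (SE 0.17) in human AHR cells, and Agt, which encodes angiotensinogen, by 0.32 (SE 0.20) in wild type cells. The list's genes with the smallest p also included Serpina7, which lay under 10 units on all human AHR TCDD arrays, and Cpn1, at 0.34 (SE 0.21) in wild type cells. Of 16 further clotting factors and inhibitors 0 were called, with F5 at -0.31 (SE 0.31) and Proz at -0.29 (SE 0.22) in human AHR cells, and F13b at 0.37 (SE 0.28) and Proc, the gene of protein C, at -0.22 (SE 0.17) in wild type cells. Of 17 complement and lectin pathway genes 0 were called, with C1ra at -0.14 in human AHR cells and Cfp, properdin, at 0.53 and Masp1 at -0.52 in wild type cells.

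Of 16 further acute phase genes 0 were called, including Il1r1, the interleukin 1 receptor, at 0.51 (SE 0.26) and Steap4, a metalloreductase, at -0.50 (SE 0.53) in human AHR cells. In wild type cells the chemokine gene Ccl2 differed by -0.71 (SE 0.51) and Ptx3, a long pentraxin that was dim on all arrays, by -0.28 (SE 0.21). Ccl2 had 452, 608 and 369 units in wild type TCDD arrays against 442, 439 and 2355 in wild type DMSO arrays, so wild type DMSO replicate 3, low for Plg and the fibrinogen chains, was the high array for Ccl2. Of 20 acute phase signalling genes 0 were called. Cebpd, an acute phase transcription factor, had 146, 244 and 203 units in human AHR TCDD arrays against 216, 324 and 265 with DMSO, a difference of -0.42 (SE 0.20). Cebpb, of the same family, differed by 0.32 (SE 0.15) in wild type cells. Il6ra, the interleukin 6 receptor, differed by 0.41 (SE 0.23) in human AHR cells. The cytokine genes themselves were dim, with Il6 at most 7.3 units, Tnf at most 23.4 and Il1b at most 47.5 on any array. Il1b differed by 0.74 (SE 0.33) with TCDD in wild type cells, with an adjusted p of 0.966 in limma.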

How the data were processed

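RNA of cultured hepatocytes was measured on 12 arrays of 45101 probe sets. The deposited intensity values were made by the authors with PLIER (Affymetrix Expression Console 1.1), per the submitters' processing notes. The design text names SAM as the authors' test, and limma was used here in its place. The values, linear and never negative, had a trimmed mean (2% at each end) of 150 in 9 arrays and 500 in 3, which is at odds with PLIER alone, so each array was rescaled to 150. Probe sets naming 1 symbol, after 64 controls were removed, gave 18193 genes, each taken as log2(intensity + 16) of its brightest probe set. Gene symbols come from GEO's platform annotation. limma 3.58.1 in R 4.3.3 fitted 4 group means over 12 arrays (8 residual degrees of freedom, eBayes with an intensity trend). Tests were two-sided, with Benjamini-Hochberg adjustment over all genes at 0.05. The fit was tested on simulated data. Arrays give no counts, and their number limits precision.

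The members and lists were chosen with earlier results of these data known. All 36 measured members were described, and for each further list the 2 genes with the smallest unadjusted p for TCDD in each genotype were named. Alternatives were other offsets, normalizations, filters, probe set rules, fits, arrays left out, a replicate block and, added after the data were seen, same-numbered arrays averaged. Same-numbered human AHR arrays were treated as paired in that block, since their deviations from the group means correlated over all genes with r of 0.235, 0.265 and 0.188. Arrays of unlike number reached -0.04 at most. Deviations from a mean of 3 arrays sum to 0, so values above 0 for like numbers push those of unlike numbers below 0. The contrast between them was thus partly fixed in advance. The values, not the labels, are the source of the pairing, and the design gives 1 array per mouse. Scan dates and culture days are not given in the sources used here, and genotype cannot be told apart from the culture day. Promoter letters come from RefSeq (GRCm38.p6). Figures were drawn with matplotlib 3.10.9.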

Additional observations from a re-analysis of the deposited data

How the results depend on the processing

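In 24 alternative settings, of which 22 or 23 were run for each of the 7 comparisons, 0 of the 36 members were called, and the lowest adjusted p was 0.279, for Serpina3n in human AHR against wild type averaged over treatments without both wild type replicate 2 arrays. The number of genes called among all genes ran from 0 to 6 for TCDD in human AHR cells, 0 to 1 in wild type cells, 0 to 1 for the difference, 0 to 4 and 0 to 2 for the genotypes with TCDD and with DMSO, 1 to 6 for TCDD averaged over genotypes and 2 to 8 for the genotypes averaged over treatments, against 4, 1, 0, 0, 1, 4 and 4. Class medians moved by more than the spread of arrays in 3 of 318 recomputed values. With arrays shifted to the same median the median difference of TCDD effects was 0.10 for constitutive genes. With array weights it was 0.12 for acute phase genes. With 1 array left out at a time, the acute phase median of human AHR against wild type with TCDD ran from -0.042 to 0.255, the highest without wild type TCDD replicate 3. With the replicate block 0 members were called in the 7 comparisons, and the block changed no other call among them. For the genotype comparisons this block ties arrays of different mice by a bare number. The setting added after the data were seen, with same-numbered arrays of a genotype averaged, gave 0 members called and 2 genes in all. Same-numbered wild type arrays correlated in their deviations over all genes with r of 0.251, 0.507 and 0.0475, so their numbers were not taken as pairs. Over the 20 acute phase members r was higher, at 0.88, 0.89 and 0.67, where arrays of unlike number reached 0.45 at most, a contrast that the centring on group means partly fixed in advance. For the 16 constitutive members r was 0.72, 0.66 and 0.15, against 0.48 at most. The block result for wild type TCDD (0 of 36 members, lowest adjusted p 0.656, 1 gene called in all) is given for completeness. With the filter that left out the dimmest 40% of genes all 36 members were still tested. In the main fit wide intervals limit Hamp, Cp, Saa3 and Saa4 most. The replicate block narrowed the median TCDD interval of the 36 members in human AHR cells from 0.46 to 0.26 on either side. There it gave -0.24 to 0.33 for Saa3, -0.84 to 0.20 for Hamp, -0.48 to 0.46 for Cp and -0.98 to 0.37 for Saa4.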

Other observations

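For 9 of the 36 genes more than 1 probe set carried the symbol alone. For Saa4 the dimmer probe set gave a TCDD difference in wild type cells of 0.17, against 0.57 for the brighter one, and a difference of human AHR against wild type with DMSO of 0.00, against 0.75. The 4 probe sets of Ttr gave TCDD differences between 0.02 and 0.10 in human AHR cells and between 0.02 and 0.20 in wild type cells. The probe set shared by Trf and Srprb, which cannot be given to either gene, differed with TCDD by 0.02 in human AHR cells (adjusted p = 1) and by 0.13 in wild type cells (adjusted p = 0.97), and by 0.16 between human AHR and wild type with DMSO, in limma.

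After quantile normalization the median deviation of the 16 constitutive genes was -0.18 on the log2 scale on wild type DMSO replicate 3, where the other 11 arrays lay between -0.01 and 0.06.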
